A study of Mus musculus with 6 samples.

Results

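Creatine and adenylate energy buffering was followed through 8 genes, chosen by name for what their products do, out of 17558 genes in the table. They are the creatine kinases Ckm, Ckb and Ckmt2, the creatine transporter Slc6a8, the adenylate kinase Ak1 and the AMP deaminases Ampd1, Ampd2 and Ampd3. RNA was sequenced from C2C12 cells, an immortalized mouse myoblast line that forms myotubes in low serum, with 2 libraries in each of 3 groups. All 6 libraries carry the genotype label WT and came from cells kept for 48 h in differentiation medium with horse serum, insulin, transferrin and selenium. The control cells stably carried a scrambled hairpin RNA (shScr), the second group a hairpin against the Pkm1 isoform of pyruvate kinase (shPkm1) and the third a hairpin against its Pkm2 isoform (shPkm2). The labels do not say whether a line was 1 clone or a pool, or whether the 2 libraries of a group came from separate cultures. The p-values therefore measure the spread between these libraries, which may be technical.

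Muscle buffers its ATP with a pair of linked systems. Creatine kinase moves phosphate between phosphocreatine and ADP, with creatine brought into the cell by Slc6a8, and the cytosolic enzyme switches from the brain type subunit made from Ckb to the muscle type subunit made from Ckm as myoblasts become fibres. Adenylate kinase turns ADP back into ATP and AMP, and AMP deaminase removes the AMP as the first step of the purine nucleotide cycle, with Ampd1 as the form of mature muscle.

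Libraries held 18216896 to 19796036 estimated counts, and replicates correlated at r = 0.988 to 0.994 across genes, which are not independent replicates. The Pkm1 isoform (NM_001253883.1) stood at 15844 and 16970 estimated counts in shScr, 5854 and 5856 in shPkm1, and 6635 and 6909 for the shPkm2-labelled pair. The Pkm2 isoform (NM_011099.3) stood at 31147 and 43712, 30825 and 37021, and 70489 and 71460 in the same order, so that the shPkm2-labelled libraries were not lower in the isoform they are named for. The summed level of 10 markers of skeletal muscle cells was 20134 to 24926 TPM (a level scaled to transcript length and library depth) in shScr, 11106 to 11854 in shPkm1 and 1340 to 1429 in the shPkm2-labelled libraries. The summed level of 6 markers of proliferating cells ran the other way, at 109 to 159, 305 in both libraries of shPkm1, and 853 to 912.5 TPM. Against shScr, Myf5 of the muscle list stood at 0.25 on the log2 scale in shPkm1 (edgeR adjusted p 0.0588). It rose by 1.74 in the shPkm2-labelled libraries (edgeR adjusted p 9.39e-09). Cdk1 of the proliferation list stood at 0.060 in shPkm1 (edgeR adjusted p 0.650). The other markers of both lists went with the sums. Of 6 markers of neurons and glia, cell types rich in Ckb, the summed level was 0.73 and 0.87 TPM in shScr, 2.25 and 2.20 in shPkm1, and 2.09 and 2.78 for the shPkm2-labelled pair, with Rbfox3 and Snap25 at 3 counts or fewer in all 6 libraries. Syt1 of this list, at 4 and 7 counts in shScr, passed the filter on low counts through the hairpin groups alone, so no fitted change is given. Its mean was 0.324 CPM (counts scaled to library size) in shScr, 1.96 in shPkm1 and 1.28 in the shPkm2-labelled libraries. Mbp rose by 1.42 on the log2 scale in the shPkm2-labelled libraries (edgeR adjusted p 0.00152), from 15 and 17 counts. Markers of bone-forming cells summed to 4.98 and 7.56, 18.8 and 15.6, and 17.0 and 15.5 TPM in the same order of groups, most of it Runx2 (3.94 and 6.08, 16.7 and 13.5, and 16.1 and 14.4 TPM), with Ibsp at 0 in all 6 libraries. Of the markers of cartilage cells, only Sox9 stood above a few counts, at 13.0 and 15.3, 15.1 and 14.9, and 36.7 and 31.3 TPM, with Acan and Col9a1 at 0 or 1 count. Markers of fat cells summed to 1.88 and 2.08, 4.25 and 4.24, and 3.67 and 3.47 TPM. Pparg, the only one of these tested, rose by 0.88 in shPkm1 (adjusted p 0.00641), from 33 and 46 counts, with 0.30 in the shPkm2-labelled libraries (adjusted p 0.307). In bulk RNA, fewer cells of a type and less RNA per cell cannot be told apart, and the part of these marker shifts in the values given here was not tested.

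Ckm and Ckb fell steeply and by more in the shPkm2-labelled libraries than in shPkm1, Ak1 fell less, and Ampd2 and Ampd3 had small differences whose sign depended on the scaling in part. Ckm fell 6.99-fold in shPkm1 and 286-fold in the shPkm2-labelled libraries, and Ckb fell 4.21-fold and 21.0-fold. Counts were scaled by TMM, which sets the libraries level over the bulk of genes. A gene is said to have risen or fallen where the adjusted p of edgeR's quasi-likelihood test was under 0.05. Of the 8 genes, Ckmt2 was too low to test, and Ampd1 passed the filter on low counts through the control libraries alone, so that it is not counted here. Of the other 6, 5 fell in shPkm1 against shScr, where 31.4% of all 12643 tested genes fell, 31.8% rose and 63.1% changed in either direction. Again 5 of 6 fell in the shPkm2-labelled libraries against shScr, where 34.2% of all genes fell, 33.9% rose and 68.0% changed. In the direct comparison of the shPkm2-labelled libraries with shPkm1, 4 of 6 fell, where 27.3% of all genes fell, 25.7% rose and 53.0% changed. A fit without shPkm1 library 1 or 2 called fewer of the 6, and also fewer of all genes, in shPkm1. With library totals alone 3 of the 6 fell in each comparison with shScr, where 2656 and 2702 of all genes fell and 5116 and 6095 rose, and limma on log2(TPM + 1) also gave 3 and 3, where 1737 and 2123 of all genes fell and 6189 and 6621 rose. With TMM scaling over all libraries no member rose, with 0 higher at an unadjusted p under 0.05 and 0 higher by DESeq2. In shPkm1, 1 of the 6, Ampd3, was called higher with library totals alone, without shScr library 2 and on log2(TPM + 1). The median log2 fold change of the 6 was -0.66, -0.93 and -0.47 in the 3 comparisons, against -0.00015, 0.0074 and 0.0046 over all genes tested. Both comparisons with shScr share its libraries.

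**Figure D1:**
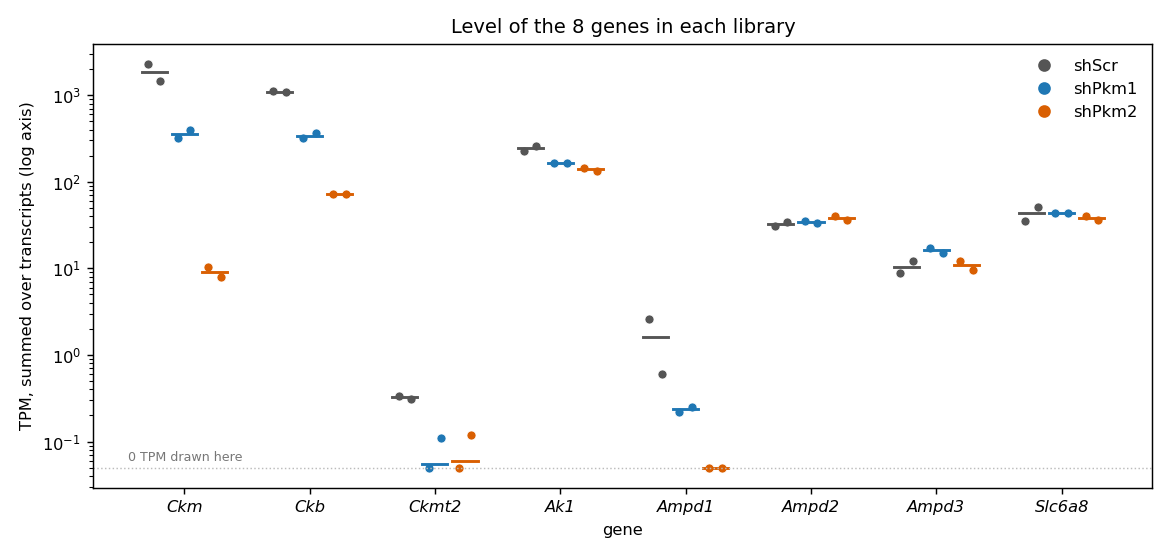
Level of each gene in every library, in TPM summed over transcripts on a log axis, with 1 point per library, a bar at the group mean and values of 0 drawn on the dotted line. Ckm drops from 1451 to 2284 TPM in shScr to 7.95 to 10.2 TPM in the shPkm2-labelled libraries, while Ampd2 stays between 30.9 and 40.2 TPM in all 6.

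Ckm encodes the cytosolic muscle creatine kinase subunit and lies on chromosome 7 (19411094 to 19421583, GRCm38). It stood at 2284 and 1451 TPM in shScr, 317 and 391 in shPkm1, and 10.2 and 7.95 in the shPkm2-labelled libraries. The groups did not overlap, and the control pair was the widest apart in absolute terms. The log2 fold change was -2.81 in shPkm1 (SE 0.226, adjusted p 3.09e-07), against -8.16 in the shPkm2-labelled libraries (SE 0.301, adjusted p 8.39e-11). From shPkm1 to the shPkm2-labelled libraries it was -5.36 (SE 0.274, adjusted p 3.44e-09), a larger step than that from shScr to shPkm1 on this scale, though the difference of the steps was not tested. Leaving out single libraries moved these values within -3.16 to -2.33, -8.52 to -7.68 and -5.54 to -5.15. The GENCODE transcript matched to Ckm (19411025 to 19422841) runs past both ends of the RefSeq gene. Of its 50-base stretches, 11.7% also occur in an annotated antisense transcript, A930016O22Rik. The share for the Ckm transcript that was counted may differ. The sources used here do not say whether counting used the strand.

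Ckb encodes the brain type subunit, which proliferating myoblasts already make, and lies on chromosome 12 (111669355 to 111672338). It stood at 1109 and 1087 TPM in shScr, 322 and 363 in shPkm1, and 71.9 and 71.8 in the shPkm2-labelled libraries. These groups did not overlap either, and within each group the libraries were close. Its log2 fold change was -2.07 (SE 0.124, adjusted p 2.21e-08) in shPkm1, -4.39 in the shPkm2-labelled libraries (SE 0.139, adjusted p 2.16e-11) and -2.32 (SE 0.128, adjusted p 7.55e-09) between them. Of its 50-base stretches, 21.9% also occur in the pseudogenes Ckb-ps1, Ckb-ps2 or Gm12892, so its count is uncertain to the extent that reads from these were counted in it. No stretch of either transcript was shared with another creatine kinase.

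The promoters of the 2 cytosolic creatine kinase genes are shown because their RNAs fell together but by different amounts. Each is the 250 bases before the annotated start in RefSeq (GRCm38.p6), read along the gene's strand, with matches to the E-box CANNTG bound by Myod1 and Myog and to the MEF2 core (CTA, any 4 bases, TAG) in capitals; both motifs read the same on either strand, so both strands were searched. Ckm spans chr7:19410844-19411093 on the plus strand and Ckb spans chr12:111672339-111672588 on the minus strand.
Ckm promoter: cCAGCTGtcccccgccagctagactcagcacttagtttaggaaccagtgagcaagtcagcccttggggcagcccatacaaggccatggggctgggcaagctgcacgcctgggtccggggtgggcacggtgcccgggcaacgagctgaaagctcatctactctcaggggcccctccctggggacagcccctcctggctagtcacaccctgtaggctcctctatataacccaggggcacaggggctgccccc
Ckb promoter: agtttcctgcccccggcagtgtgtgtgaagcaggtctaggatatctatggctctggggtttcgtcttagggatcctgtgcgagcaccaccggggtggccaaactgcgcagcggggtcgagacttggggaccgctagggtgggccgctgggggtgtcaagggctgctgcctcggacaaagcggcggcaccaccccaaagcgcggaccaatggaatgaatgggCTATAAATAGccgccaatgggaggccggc
The Ckm window held 1 E-box, CAGCTG, starting 249 bases before the start, and no MEF2 core. The Ckb window held no E-box and 1 MEF2 core, CTATAAATAG, starting 29 bases before the start, whose letters overlap the TATAAA of a TATA box. E-boxes occurred in 66.2% of 32851 promoter windows of this length and the MEF2 core in 3.20%. The window of Ckmt2, whose RNA was near 0 in all libraries, held 4 E-boxes. A match of letters is a description and not a bound site. Bases outside these windows, where other control regions may lie, were not searched.

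The make-up of the creatine kinase RNA differed between the groups, with a smaller share from Ckm where the sum was lower. Summed over Ckm, Ckb, Ckmt1 and Ckmt2, the family stood at 3393 and 2538 TPM in shScr, 639 and 754.5 in shPkm1, and 82.2 and 79.9 in the shPkm2-labelled libraries. Ckm made up 67.3% and 57.2% of it in shScr, 49.6% and 51.9% in shPkm1, and 12.5% and 9.94% in the shPkm2-labelled libraries. The group means were 62.2% ± 7.18 (SD, n = 2), 50.8% ± 1.59 and 11.2% ± 1.78. The ratio of Ckm to Ckb was 2.06 and 1.33, 0.985 and 1.08, and 0.142 and 0.111 in the same order, so that no group overlapped another. With 2 libraries in a group, no test of the shares is given.

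**Figure D2:**
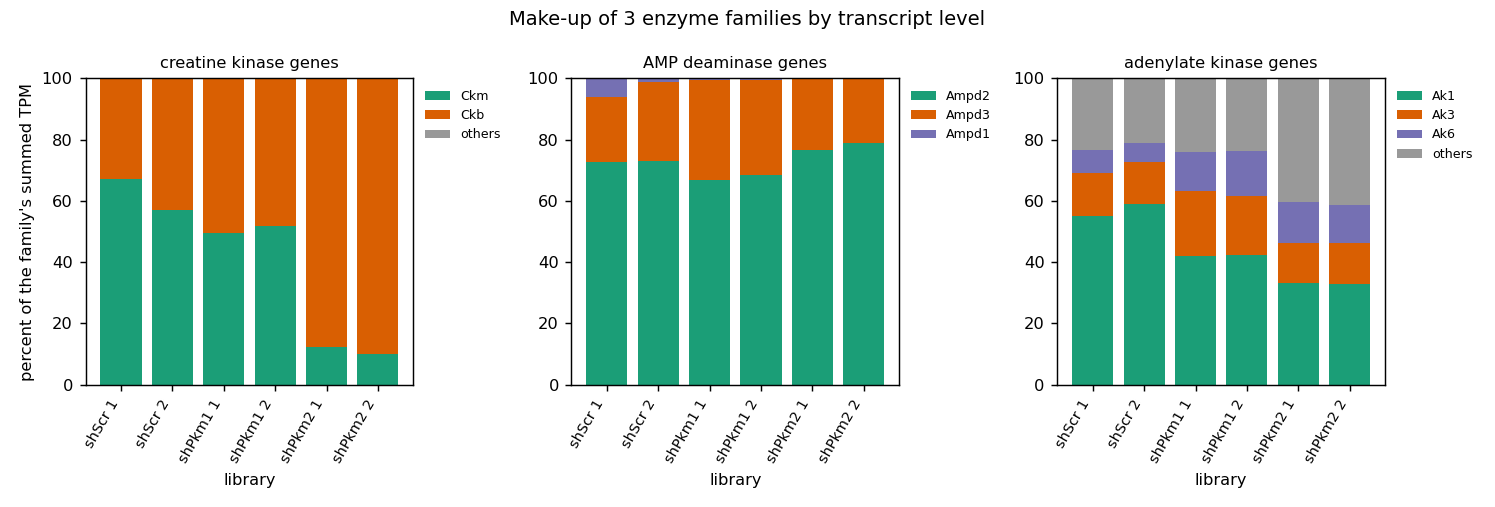
Stacked bars of the percent of each family's summed TPM that each gene contributes, 1 bar per library, for creatine kinase, AMP deaminase and adenylate kinase genes. Ckm falls from 57.2% to 67.3% of creatine kinase in shScr to 9.94% to 12.5% in the shPkm2-labelled libraries, and Ak1 falls from 55.2% to 58.9% of adenylate kinase to 32.8% to 33.2%.

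Ckmt2, the mitochondrial creatine kinase of striated muscle, lies on chromosome 13 (91853386 to 91876923). It had 6 and 4 counts in shScr, 0 and 1 in shPkm1, and 0 and 2 for the shPkm2-labelled pair. With the shRNA groups set at 3 counts per library, the control mean stood 1.95-fold above shPkm1 and 2.13-fold above the shPkm2-labelled libraries. The lower control library stood 1.45-fold and 1.59-fold above them. These values take the control counts as exact, so they do not cover counting error in shScr, and no test was run. The ubiquitous mitochondrial form, Ckmt1, had 0 counts in shScr and shPkm1 and 1 count in each shPkm2-labelled library. At this depth, mitochondrial creatine kinase RNA was above the floor of 3 counts in the shScr libraries alone.

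Slc6a8, which carries creatine into the cell, lies on chromosome X (73673133 to 73682502). It stood at 35.3 and 51.0 TPM in shScr, 43.1 and 43.3 in shPkm1, and 40.4 and 36.5 in the shPkm2-labelled libraries. On this scale the control pair enclosed every other library. In the count model its log2 fold change was -0.38 in shPkm1 (SE 0.117, adjusted p 0.0128), against -0.61 in the shPkm2-labelled libraries (SE 0.118, adjusted p 0.000445), and -0.23 (adjusted p 0.113) between them. Both falls kept their call with DESeq2 size factors and in the DESeq2 test. They lost it on log2(TPM + 1) and with library totals alone: limma on log2(TPM + 1) gave 0.023 (adjusted p 0.902) in shPkm1, a reversed sign, and -0.14 (adjusted p 0.426) in the shPkm2-labelled libraries, and library totals alone gave adjusted p values of 0.232 and 0.0659. The fall in shPkm1 also lost its call without shScr library 2 (-0.19, adjusted p 0.117), without shPkm1 library 1 (-0.32, adjusted p 0.128) and without shPkm1 library 2 (-0.42, adjusted p 0.0507), while the direct difference gained one without shScr library 1 (adjusted p 0.0179) or 2 (adjusted p 0.0182), or with only the compared groups in the fit (adjusted p 0.0159). On log2(TPM + 1) the median of all genes lay at 0.31 in shPkm1 and 0.36 in the shPkm2-labelled libraries, and with library totals alone at 0.19 and 0.33. Relative to that median the TPM values of Slc6a8 were -0.29 and -0.51.

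**Figure D3:**
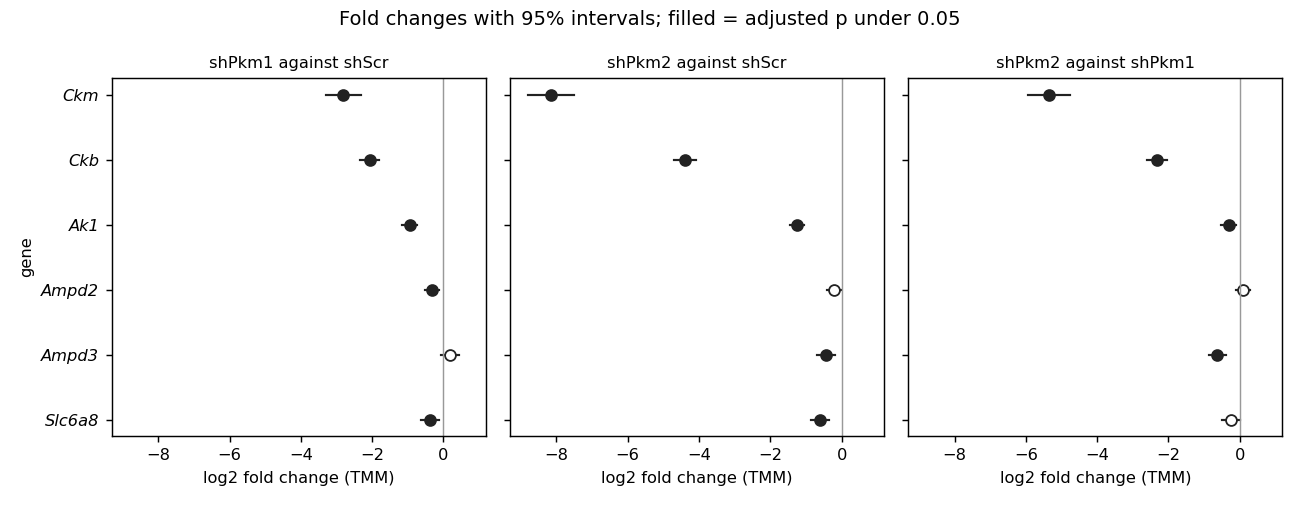
Log2 fold changes in the 3 comparisons with 95% intervals, filled where the adjusted p is under 0.05. Ckm and Ckb lie farthest to the left of 0 in both comparisons with the shPkm2-labelled libraries, and Ampd1 and Ckmt2 are not drawn.

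Ak1, the cytosolic adenylate kinase of muscle, lies on chromosome 2 (32621758 to 32635058). It stood at 227 and 258 TPM in shScr, 166 and 164 in shPkm1, and 146 and 134 in the shPkm2-labelled libraries. The 3 groups did not overlap, with a gap between shPkm1 and the shPkm2-labelled libraries that was small beside the step from shScr. The log2 fold change was -0.95 in shPkm1 (SE 0.0951, adjusted p 2.21e-06), against -1.25 in the shPkm2-labelled libraries (SE 0.0958, adjusted p 9.30e-08). The direct difference was -0.31 (SE 0.0950, adjusted p 0.0150). It lost its call without shPkm1 library 2 (adjusted p 0.108), without either shPkm2-labelled library (adjusted p 0.0690 and 0.114), with library totals alone (adjusted p 0.149) and on log2(TPM + 1) (adjusted p 0.0779). The Ak1 transcript NM_021515 shared no 50-base stretch with another gene.

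The fall of Ak1 was uneven across its transcripts. Transcript NM_001198791.1, starting at position 32625437, held 2459 and 2495 estimated counts in shScr, 510 and 462 in shPkm1, and 393 and 232 for the shPkm2-labelled pair. Its log2 fold change was -2.52 in shPkm1 (SE 0.260, adjusted p 0.0107 over 33433 transcripts), against -3.30 in the shPkm2-labelled libraries (SE 0.270, adjusted p 0.00336), by the same edgeR test on transcripts. Without shPkm1 library 1 or 2 the adjusted p of the first rose to 0.0896 or 0.0770. Its share of Ak1 counts was 42.2% in shScr, 13.9% in shPkm1 and 9.97% in the shPkm2-labelled libraries. It held 72.7% of the lower TMM-scaled level of Ak1 (CPM, counts scaled to library size) in shPkm1 and 65.3% in the shPkm2-labelled libraries. All other Ak1 transcripts together stood at 195 and 212 CPM in shScr, 152 and 163 in shPkm1, and 132 and 134 in the shPkm2-labelled libraries.

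Transcript NM_021515.3, starting at position 32629504, held 46.9 and 86.3 TPM in shScr, 87.0 and 89.5 in shPkm1, and 75.1 and 44.0 in the shPkm2-labelled libraries. The shPkm1 pair was close, while the shScr pair and the shPkm2-labelled pair were wide apart, and its log2 fold changes of 0.069 (adjusted p 0.949) and -0.58 (adjusted p 0.333) did not pass the test. The first of these turned negative without shScr library 1 (-0.26) or shPkm1 library 2 (-0.012). How reads shared by several transcripts were divided among them is not given in the sources used here. The windows before these starts are shown to set the transcript whose estimated counts fell beside one that did not pass the test. Use of the starts themselves was not measured. Both windows are read as above on the plus strand. They lie at chr2:32625187-32625436 and, for the RefSeq start nearest to the second, at chr2:32629250-32629499.
Ak1 start 32625437: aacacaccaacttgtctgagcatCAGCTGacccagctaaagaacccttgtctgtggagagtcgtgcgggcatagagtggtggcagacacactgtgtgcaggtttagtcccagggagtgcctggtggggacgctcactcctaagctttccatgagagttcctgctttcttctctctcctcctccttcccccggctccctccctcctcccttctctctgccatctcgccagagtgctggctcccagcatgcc
Ak1 start 32629500: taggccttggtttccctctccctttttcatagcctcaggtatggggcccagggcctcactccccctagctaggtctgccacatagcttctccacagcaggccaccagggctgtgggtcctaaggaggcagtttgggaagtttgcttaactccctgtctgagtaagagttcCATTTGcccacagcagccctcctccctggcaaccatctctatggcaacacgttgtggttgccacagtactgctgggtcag
Each window held 1 E-box, CAGCTG starting 227 bases before the first start and CATTTG starting 80 bases before the second, and neither held a MEF2 core. The windows before the other Ak1 starts in RefSeq, 32621758 and 32628390, held 3 and 2 E-boxes, and the median over all windows was 1. GENCODE matches both NM_001198792.1 and NM_001198790.1 to the same transcript, which begins at the first of these, so their own starts may differ. NM_001198792.1 passed the test in no comparison.

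**Figure D4:**
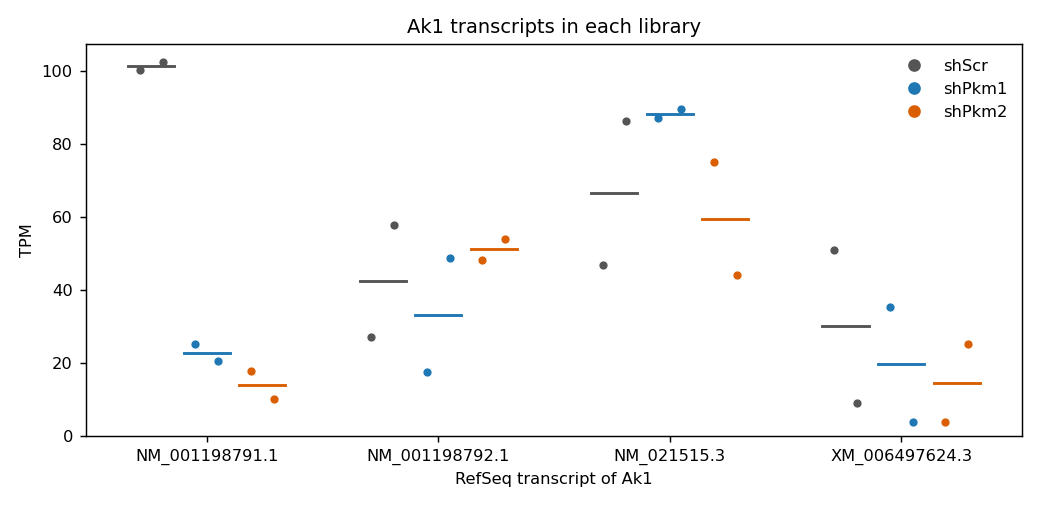
TPM of the 4 Ak1 transcripts that reach 3 TPM in some library, with 1 point per library and a bar at the group mean. NM_001198791.1 lies at 100.2 and 102 TPM in shScr and at 10.1 TPM in the lowest shPkm2-labelled library, while the shScr pairs of the other 3 transcripts are wide apart.

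Ampd1, the AMP deaminase of mature skeletal muscle, lies on chromosome 3 (103073897 to 103099720). It had 64 and 15 counts in shScr, 5 and 5 in shPkm1, and 0 and 0 for the shPkm2-labelled pair. The groups did not overlap, but the control libraries differed more from each other than the lower of them did from shPkm1. Since the gene passed the filter on low counts through shScr alone, no fitted fold change or p is given for it, and its levels and bounds are a description. The mean of shScr was at least 17.2-fold higher than the shPkm2-labelled libraries against a floor of 3 counts per library, and the lower control library was at least 5.96-fold higher. With the shPkm2-labelled libraries set at the same floor, the shPkm1 mean stood 1.83-fold above them, with both groups near the floor. All these bounds take the counts of the higher group as exact.

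Ampd2, the form made in most tissues, lies on chromosome 3 (108074059 to 108086687). It stood at 30.9 and 34.3 TPM in shScr, 35.3 and 33.3 in shPkm1, and 40.2 and 36.3 in the shPkm2-labelled libraries, with shScr and shPkm1 overlapping. In the count model it fell slightly in shPkm1, at -0.31 on the log2 scale (SE 0.0927, adjusted p 0.00992), while on log2(TPM + 1) the sign was reversed at 0.073 (adjusted p 0.607), and relative to the median of all genes the TPM value was -0.24. The call in shPkm1 was lost without shPkm1 library 1 (adjusted p 0.0715) or 2 (adjusted p 0.0651) and with library totals alone (adjusted p 0.319). In the shPkm2-labelled libraries the value was -0.22 (adjusted p 0.0526), which passed without shScr library 2 (adjusted p 0.0485) and with DESeq2 size factors (adjusted p 0.0474), and the sign was reversed with library totals alone (0.11) and on log2(TPM + 1) (0.22). The direct difference was 0.097, with a 95% interval of -0.10 to 0.30 (adjusted p 0.395). Of its 50-base stretches, 10.0% also occur in the antisense transcript Gm12500.

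Ampd3, known as the red cell form and also made in other tissues, lies on chromosome 7 (110767790 to 110812409). It stood at 8.92 and 12.1 TPM in shScr, 17.2 and 15.2 in shPkm1, and 12.2 and 9.68 in the shPkm2-labelled libraries. The shPkm1 libraries were the highest and did not overlap the others. In the count model its log2 fold change in shPkm1 was 0.17 with a 95% interval of -0.074 to 0.42 (adjusted p 0.201), which passed as a rise without shScr library 2 (0.32, adjusted p 0.0237), with library totals alone (0.37, adjusted p 0.0270) and on log2(TPM + 1) (0.59, adjusted p 0.00916). It fell in the shPkm2-labelled libraries against shScr, at -0.45 (SE 0.117, adjusted p 0.00415), but not with library totals alone (-0.13, adjusted p 0.411) or on log2(TPM + 1), where the sign was reversed at 0.060 (adjusted p 0.767) and the value relative to the median of all genes was -0.30. The direct comparison gave a fall of -0.62 (SE 0.116, adjusted p 0.000524) and held with library totals alone and on log2(TPM + 1) (adjusted p 0.0215), though not on log2(TPM + 1) without a filter (adjusted p 0.0733). Ampd3 overlaps Rnf141 on the other strand, which shares 50-base stretches with it together with Gm47282 (4.55% of the Ampd3 stretches). Rnf141 did not pass the test in any of the 3 comparisons, at 0.11, 0.20 and 0.090.

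The AMP deaminase genes together stood at 42.4 and 47.0 TPM in shScr, 52.7 and 48.7 in shPkm1, and 52.4 and 46.0 in the shPkm2-labelled libraries. Ampd2 was the main form throughout, at 72.9% ± 0.200 (SD, n = 2), 67.7% ± 1.02 and 77.8% ± 1.54 of the sum. Ampd1 held 6.20% and 1.28% of it in shScr, 0.417% and 0.513% in shPkm1, and 0% in both shPkm2-labelled libraries. The summed level in the shPkm2-labelled libraries overlapped both other groups.

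At the level of single transcripts, 22 of the 31 transcripts of the 8 genes were tested. In shPkm1 4 of them fell, where 5.36% of all transcripts fell, 5.47% rose and 10.8% changed. In the shPkm2-labelled libraries 3 fell, where 9.32% of all fell, 7.91% rose and 17.2% changed, and in the direct comparison 3 fell and 1 rose, where 5.04% of all fell, 2.87% rose and 7.91% changed. Besides Ckm, Ckb and the Ak1 transcript these were a Slc6a8 transcript, NM_001142810.1, with 38 and 41 counts in shScr, 0 in both shPkm1 libraries and 25 and 19 in the shPkm2-labelled libraries, and an Ampd3 transcript. The latter, XM_006507221.3, held 258 and 352 counts in shScr, 470 and 545 in shPkm1, and 196 and 261 for the shPkm2-labelled pair, and its direct difference was -1.28 on the log2 scale (SE 0.219, adjusted p 0.0377). With the replicate number as a block, 3 transcripts of the 8 genes fell in each comparison and 0 rose. The share of all transcripts called with the block is not given here. Without shPkm1 library 1 or 2 the calls of shPkm1 against shScr dropped from 4 to 0 or 1. In the direct comparison they dropped from 4 to 2 without shScr library 2 or either shPkm1 library, and to 1 without either shPkm2-labelled library.

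The order of the genes by level also changed. In shScr it ran from Ckm at 1867 ± 589 TPM (SD, n = 2) through Ckb at 1098 ± 15.3, Ak1 at 243 ± 21.9, Slc6a8 at 43.2 ± 11.1, Ampd2 at 32.6 ± 2.43, Ampd3 at 10.5 ± 2.21 and Ampd1 at 1.61 ± 1.44 to Ckmt2 at 0.325 ± 0.0212. Slc6a8 and Ampd2 differed by less than the SD of Slc6a8, and Ampd1 and Ckmt2 by less than the SD of Ampd1. In shPkm1, Ckm (354 ± 52.5 TPM) and Ckb (342 ± 29.1) overlapped, and the other genes kept their places. In the shPkm2-labelled libraries, Ak1 came first at 140 ± 8.24 TPM, ahead of Ckb at 71.9 ± 0.0919. Slc6a8 and Ampd2 overlapped there, and Ckm at 9.10 ± 1.63 TPM overlapped Ampd3 at 10.9 ± 1.76.

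The other genes of the pathway were given by 51 genes in 6 lists, of which 43 were tested. Of these, 8 rose and 22 fell in shPkm1, 12 rose and 21 fell in the shPkm2-labelled libraries, and 10 rose and 16 fell between them. In percent of all genes tested, 31.8% rose and 31.4% fell, 33.9% rose and 34.2% fell, and 25.7% rose and 27.3% fell in these comparisons. On log2(TPM + 1), which moved the median of all genes to 0.31, 0.36 and 0.061, limma called 16 risen and 14 fallen, 22 and 15, and 10 and 15 of the 43, beside 6189 risen and 1737 fallen, 6621 and 2123, and 3235 and 2782 of all genes. The median log2 fold changes of the 43 were -0.38, -0.067 and -0.055. Values of genes in these lists are TMM log2 fold changes with edgeR adjusted p values.

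The 2 enzymes that make creatine fell in every comparison. Gatm, which makes guanidinoacetate, fell by 1.32 on the log2 scale in shPkm1 (adjusted p 6.97e-07), by 1.90 in the shPkm2-labelled libraries (adjusted p 1.34e-08) and by 0.58 between them (adjusted p 0.00112). Gamt, which methylates it to creatine, fell by 1.25 (adjusted p 1.48e-06), 2.02 (adjusted p 1.05e-08) and 0.77 (adjusted p 0.000146). Their levels were 70.0 ± 4.05 TPM (SD, n = 2), 37.0 ± 0.849 and 25.9 ± 2.96 for Gatm and 297 ± 24.5, 165 ± 2.02 and 101.0 ± 1.07 for Gamt. The other genes of this list, Ckmt1 and Slc16a12, were too low to test.

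Among the other adenylate kinases, 1 of 5 tested genes rose and 3 fell in shPkm1, while 2 rose and 2 fell both against shScr in the shPkm2-labelled libraries and in the direct comparison. Ak6 rose by 0.46 and 0.42 against shScr, Ak4 fell by 0.46 in shPkm1 and was 0.43 higher in the direct comparison, and Ak3 fell by 0.54 in the shPkm2-labelled libraries. Ak1 went from 57.1% ± 2.59 (SD, n = 2) of adenylate kinase TPM in shScr to 42.1% ± 0.243 in shPkm1 and 33.0% ± 0.220 in the shPkm2-labelled libraries. The sum over the family was 411 and 438, 397 and 388, and 440.0 and 409 TPM, lowest in shPkm1 and overlapping between shScr and the shPkm2-labelled libraries.

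In the purine nucleotide cycle and the removal and salvage of AMP, 4 of 12 tested genes rose and 3 fell in shPkm1, and 6 rose and 3 fell in the shPkm2-labelled libraries. Adssl1, the muscle form of adenylosuccinate synthase and the next enzyme of the cycle after AMP deaminase, fell by 0.86 (adjusted p 1.51e-05) and 2.46 (adjusted p 7.85e-10). Adss, the form of other tissues, rose by 1.48 (adjusted p 9.05e-08) and 1.86 (adjusted p 4.04e-09). Their TPM crossed, from 125 ± 0.460 (SD, n = 2) and 10.8 ± 1.40 in shScr to 90.2 ± 3.91 and 39.4 ± 2.60 in shPkm1 and to 31.2 ± 1.57 and 53.8 ± 0.0566 in the shPkm2-labelled libraries. Adsl, the enzyme that follows it in the cycle, fell by 0.58 and 0.61.

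Ada, which deaminates adenosine, rose by 1.47 and 1.52, and Pnp, which splits inosine, rose by 0.98 and 1.10 in the same comparisons. Nt5e, which makes adenosine from AMP outside the cell, had 42 and 16 counts in shScr, 211 and 241 in shPkm1, and 47 and 49 for the shPkm2-labelled pair. It rose in shPkm1 at a log2 fold change of 2.74 (adjusted p 5.38e-06, 2.14 to 3.69 with either control library left out) and was 2.36 lower in the shPkm2-labelled libraries than in shPkm1 (adjusted p 1.14e-05). Nt5c2 fell by 0.98 and 1.05 against shScr, Nt5c3 rose by 0.52 in the shPkm2-labelled libraries, and Aprt rose by 0.56 in the direct comparison, where 2 of 12 rose and 2 fell.

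For AMP-activated protein kinase, which senses the AMP that adenylate kinase forms, 1 of 9 genes rose and 4 fell in shPkm1, 2 rose and 4 fell in the shPkm2-labelled libraries, and 3 rose and 4 fell between them. Prkag3, the gamma subunit of skeletal muscle, had 998 and 801 counts in shScr, 562 and 532 in shPkm1, and 9 and 14 for the shPkm2-labelled pair, with log2 fold changes of -0.93 (adjusted p 0.000111) and -6.62 (adjusted p 8.40e-11). Prkaa2, the catalytic subunit prominent in muscle, fell by 0.65 (adjusted p 0.0144) and 2.56 (adjusted p 6.67e-07), and without shScr library 1 the first of these was -0.26 (adjusted p 0.208). In the shPkm2-labelled libraries, Prkaa1 and Prkag2, the more widely made subunits, rose by 0.80 and 1.30, and Prkab2 fell by 1.03. Stk11, the upstream kinase LKB1, fell by 0.96 and 1.02 against shScr, and Camkk2 rose by 0.43 in shPkm1. Prkab1 fell by 0.32 in shPkm1, with 0.082 on log2(TPM + 1) and -0.23 there less the median of all genes, and was 0.26 higher in the direct comparison.

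Of the carriers that pass ATP and ADP between mitochondria and cytosol, 4 of 5 fell in shPkm1 and 4 of 5 in the shPkm2-labelled libraries. Vdac2 fell by 0.77 and 0.64, Vdac1 by 0.63 and 0.53, and the muscle carrier Slc25a4 by 0.53 and 0.37. On log2(TPM + 1), Slc25a4 and Vdac3 were at 0.085 and 0.093 in the shPkm2-labelled libraries, and at -0.28 and -0.27 less the median of all genes on that scale. Slc25a5 fell by 0.56 in shPkm1 and was 0.55 higher in the direct comparison.

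Of the transcription factors known to act on Ckm control regions, 2 of 10 tested genes rose and 6 fell in each of the 3 comparisons. Myog, which drives terminal differentiation, stood at 2126 and 2051 TPM in shScr, 1430 and 1437 in shPkm1, and 67.2 and 73.5 in the shPkm2-labelled libraries, with log2 fold changes of -0.94 (adjusted p 3.19e-05) and -5.35 (adjusted p 1.06e-11). Myod1 fell by 0.90 and 2.22, and Mef2d by 0.89 and 1.53. Mef2c had 367 and 97 counts in shScr, 57 and 58 in shPkm1, and 5 and 4 for the shPkm2-labelled pair, and the control libraries stood far apart. Its log2 fold change in shPkm1 of -2.25 (adjusted p 0.00112) was -0.88 without shScr library 1 and -2.96 without shScr library 2, and that in the shPkm2-labelled libraries of -6.02 (adjusted p 6.67e-06) was -4.64 and -6.72. Myf5, which marks undifferentiated myoblasts, rose by 1.74 in the shPkm2-labelled libraries, and Six4 rose by 0.42 and 0.49. Klf3 rose by 0.56 in shPkm1, and Mef2a fell by 1.04 in the direct comparison.

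Of 26 named in shPkm1, 21 kept their call with each library left out in turn, and Ak6, Ak4, Prkaa2, Prkab1 and Six4 did not. Of 27 in the shPkm2-labelled libraries, 23 kept it, and Ak6, Slc25a4, Vdac3 and Six4 did not. Of 21 in the direct comparison, 16 kept it, and Ak4, Adss, Prkab1, Prkab2 and Camkk2 did not. On log2(TPM + 1), 6, 6 and 1 of them lost the call, which took in Adsl, Slc25a5 and Slc25a4 in shPkm1 and Ak3, Adsl, Vdac2 and Vdac1 in the shPkm2-labelled libraries.

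**Figure D5:**
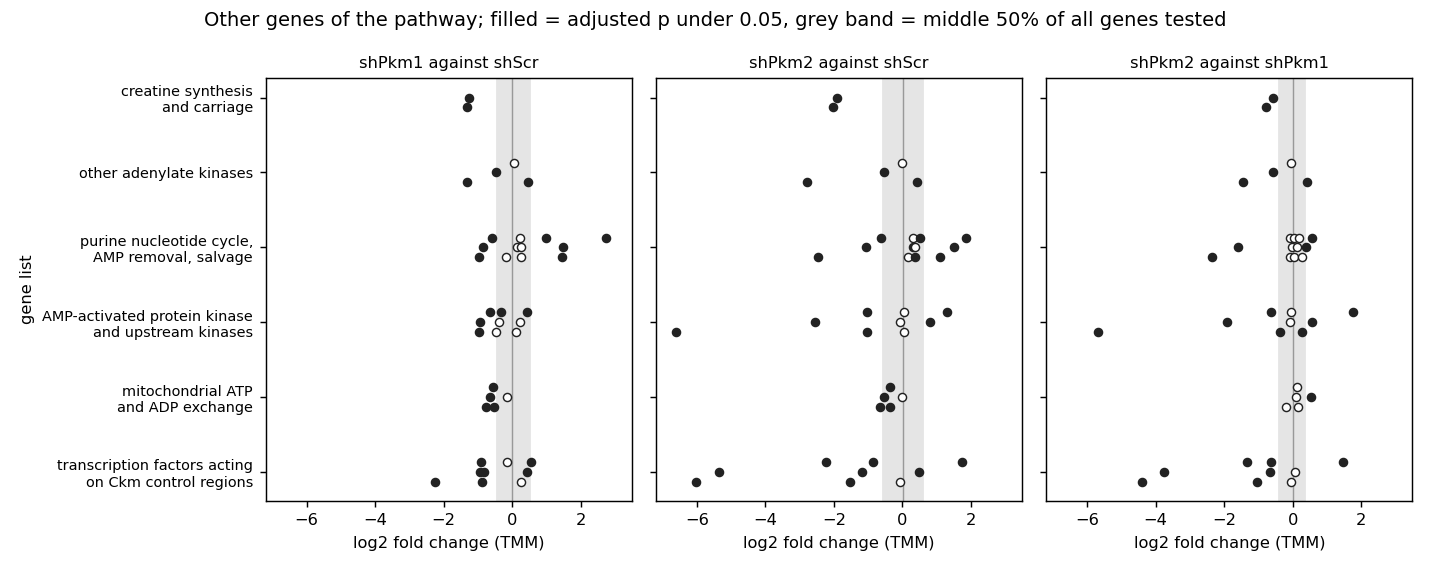
TMM log2 fold changes of the tested pathway genes by list in the 3 comparisons, without those not reported by name, filled where the adjusted p is under 0.05, with a grey band over the middle 50% of all genes tested. Gatm and Gamt lie left of the band in all 3 comparisons, and Prkag3 and Myog stand at -6.62 and -5.35 in the shPkm2-labelled libraries.

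The genes with the most similar profile over the 6 libraries were found by the distance between centred log2 CPM values among 10745 genes, as a description. For Ckm they were Myl4 (0.418), Tnnc2 (0.496) and Itgb1bp2 (0.550), with Myl4 and Tnnc2 encoding contractile proteins. For Ckb they were Stac3 (0.197), Jsrp1 (0.205) and Cacnb1 (0.438), all of which encode proteins of the excitation and contraction coupling apparatus. Ak1 was closest to Aar2 (0.0818), Rapgef1 (0.0929) and Shb (0.101), and Ampd1, at larger distances, to Ddc (0.836), Acsl6 (0.878) and Plet1 (1.08). Ampd2 was closest to Nek6 (0.0584), Dele1 (0.0642) and Copg2 (0.0667), Ampd3 to B4galt7 (0.0990), Castor2 (0.119) and Slc38a7 (0.120), and Slc6a8 to Scarf2 (0.105), Sgsm3 (0.120) and Rnf135 (0.122). None of the 7 genes compared was among the nearest 3 of another, and Ckmt2 was too low to be compared. Candidates needed a mean of at least 50 counts, which Ampd1 did not reach, so Ampd1 could not appear among them.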

How the data were processed

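RNA was sequenced from 6 libraries of C2C12 cells, grouped by their titles. The deposited table lists 57920 RefSeq transcripts with their NCBI gene numbers and, per the file headers, an estimated count, an FPKM and a TPM value for each library. Of the deposited estimated counts, 48.0% to 50.7% per library are exactly whole as printed, zeros included, and 16.5% to 17.7% of those above 0. Per the file headers, the authors also gave TPM and FPKM, which correct for length and depth. The submitters' processing notes name HISAT, StringTie, Bowtie, RSEM, DESeq2 and mm10, without roles or versions, and read length and strandedness are not given in the sources used here. A further 9 columns of group means were not read.

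Estimated counts and TPM were summed per gene, and counts were rounded. Symbols came from RefSeq (GRCm38.p6) and matched 17445 of 17558 genes. Genes passing filterByExpr (minimum count 10, minimum total 15; 12643 genes) were tested with edgeR 4.0.16 in R 4.3.3, with TMM scaling, 1 coefficient per group over all 6 libraries, the two-sided quasi-likelihood F-test and Benjamini-Hochberg adjustment over all tested genes, at a threshold of 0.05. Transcripts were tested in the same way (33433 transcripts). A count of 3 was the floor, and floors cover counting error in the lower group only. Library numbers were not used as pairs.

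The 8 genes, the gene lists and the tests were chosen with earlier results of these data known. From each list and comparison, up to 4 risen and 4 fallen genes with the largest change and a mean of at least 50 counts were named; some items are counted but not reported by name here. Alternatives were DESeq2 size factors, library totals alone, no filter, a 50-count mean as filter, a replicate block, fitting only the compared groups, the DESeq2 1.42.0 test, limma 3.58.1 on log2(TPM + 1) and log2(TPM + 0.1), and each library left out. Values less the median of all genes, and the alternatives for transcripts, were added after seeing the data. Adss1, Adss2 and Hprt1 stand under their older symbols Adssl1, Adss and Hprt. Nt5c1a had no row. Promoter windows came from RefSeq (GRCm38.p6), and shared stretches and transcript starts from GENCODE vM21. Ampd1 and Slc6a8 had no promoter entry.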

Additional observations from a re-analysis of the deposited data

How the results depend on the processing

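Ckm and Ckb kept their direction and their call in all 3 comparisons under every alternative run, and Ak1 in both comparisons with shScr. With the replicate number as a block, 5, 5 and 4 of the 8 genes, not counting Ampd1, and 32, 34 and 26 pathway genes were called (5, 5 and 4, and 30, 33 and 26, without it), beside 7922, 8566 and 6682 of all 12643 genes (7984, 8602 and 6703 without it); same-numbered libraries showed no shared deviation in every pair of groups (r = -0.026, 0.042 and 0.053 between pairs of groups, and -0.023, 0.041 and 0.106 over genes with a mean of 50 counts). On log2(TPM + 1) without a filter 2 of the 8 genes were called in the direct comparison in place of 4. Of all genes, 5547 of 16387 were called there, in place of 6703 of 12643. With 1 library left out, 0 to 3 transcripts of the 8 genes were called in shPkm1 and 1 to 3 in the direct comparison, where all libraries gave 4 in each. Signs turned on log2(TPM + 1), with or without the filter, and on log2(TPM + 0.1), for Ampd2 (0.073 and 0.075), Slc6a8 (0.023 and 0.024), and Prkab1 (0.082 and 0.084) in shPkm1, and for Ampd2 (0.22 and 0.23), Ampd3 (0.060 and 0.065), Slc25a4 (0.085 and 0.085) and Vdac3 (0.093 and 0.094) in the shPkm2-labelled libraries. With library totals alone Ampd2 turned to 0.11 there. Less the median of all genes, the log2(TPM + 1) and log2(TPM + 0.1) values of the 7 tested genes with the filter had the signs of the count model (without the filter Ampd2 stood at 0.070 in the shPkm2-labelled libraries on log2(TPM + 1)), and so did Prkab1, Slc25a4 and Vdac3 on both scales. The Ak1 transcript NM_021515.3 turned negative in shPkm1 without shScr library 1 (-0.26) or shPkm1 library 2 (-0.012), with 0.49 as the highest value with a library left out. NM_001198792.1, which passed in no comparison, turned in the shPkm2-labelled libraries with library totals alone (0.15) or without shScr library 2 (0.42; the lowest value with a library left out was -0.52), and in the direct comparison without shPkm1 library 1 (-0.040; the highest was 1.55). The cause of these turns was not tested. Depth limits Ckmt2 in all groups, and Ampd1 in shPkm1 and the shPkm2-labelled libraries (5, 5, 0 and 0 counts), beside a floor of 3 counts.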
